A study of Rattus norvegicus with 12 samples.

Results

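The 100 most abundant rows of the liver gene table were examined in 12 livers of male Wistar rats, 3 from each of 4 groups. They were chosen by their mean FPKM over the 12 libraries, out of the 34188 rows that remained after 6 rows had been left out. FPKM counts the fragments of a gene per length of its transcript and per number of fragments in the library, so levels of different rows are compared here per length. Since the rule used the mean level, the level itself is given as a description, and tests were made only on differences between groups. All livers were taken at week 20. Control rats were injected with saline and drank water. NDEA rats were injected intraperitoneally with 25 mg/kg N-nitrosodiethylamine, a liver carcinogen that liver enzymes activate, with 2 injections a week over weeks 2 to 9, and had water to drink. NDEA+CFT-1 and NDEA+FYT rats were given these injections too. For 20 weeks they drank an infusion of the EGCG-rich tea CFT-1 or of the common tea Fuyun6 (FYT). Each group began with 12 rats. The paper counted liver lesions in all 12 rats of Control and NDEA+CFT-1, but in fewer rats of NDEA and NDEA+FYT. The ages of the rats were not given in the sources used here, and each library was made from bulk liver.

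Hepatocytes secrete most of the proteins of blood plasma and also carry the enzymes that handle amino acids, sugars, lipids and foreign compounds. A limited number of genes therefore takes up much of the messenger RNA of a liver, and albumin, the main carrier and osmotic protein of plasma, is typically among the most abundant of them. Because FPKM is a relative scale, a higher level of such genes leaves a smaller share for all others. In bulk tissue, fewer cells of a type and less RNA per cell cannot be told apart.

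Albumin (ENSRNOG00000002911) was the only row with a name. The file does not pair its IDs with symbols, and 0 of the IDs matched the reference gene table, so the other rows are called by their rank in mean FPKM. Lists of plasma proteins, enzymes, mitochondrial RNAs and markers of liver cell types were not analysed here for that reason, and the labelled tissue was checked by albumin alone, which ranked first in 12 of 12 libraries. The depth in reads is unknown. Steps of 1 read in the low values gave rough relative depths, from 1 in NDEA replicate 1, the lowest, to 1.66 in NDEA+CFT-1 replicate 1. In the libraries other than NDEA replicate 1, the most frequent value held for 20.7 to 27.2% of the genes used. The number of rows above 0 did not follow this order, with 19852 in NDEA replicate 1 and 17983 in Control replicate 3. NDEA replicate 1 also stood apart in many rows, and the counts and differences of the comparisons with NDEA that it moved most are given without it as well.

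The 100 rows held about as much of the summed FPKM as all other rows together. Their share was 48.7%, 50.3% and 54.6% in the Control libraries, 41.9%, 50.9% and 50.4% in NDEA, 47.6%, 50.9% and 49.1% in NDEA+CFT-1, and 47.0%, 48.5% and 48.7% in NDEA+FYT, in the order of the replicates. The lowest value was that of NDEA replicate 1 and the highest that of Control replicate 3, and the libraries of every pair of groups overlapped. The group means were 51.2 ± 3.03%, 47.7 ± 5.03%, 49.2 ± 1.66% and 48.1 ± 0.919% (SD, n = 3) in the same order of groups. Without NDEA replicate 1, the NDEA mean was 50.6%, from 2 libraries, and lay between those of Control and NDEA+CFT-1. The lower share of that library went with a larger sum outside the 100 rows, 410974 FPKM against 309841 to 357500 in the other libraries, and with the smallest sum inside them, 296357 FPKM against 307576 to 372436. No test was made on the shares, because the rows that enter them were chosen from these libraries.

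**Figure D1:**
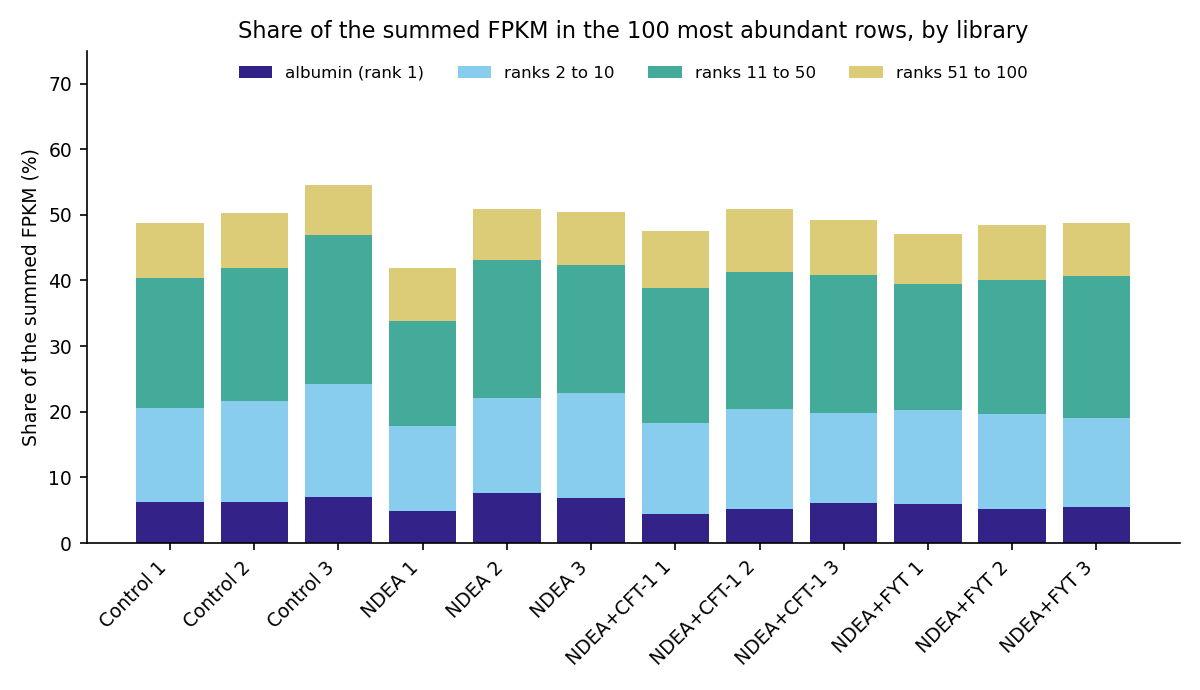
Share of the summed FPKM (%, vertical axis) taken by the 100 most abundant rows in each of the 12 libraries (horizontal axis), split into albumin, ranks 2 to 10, ranks 11 to 50 and ranks 51 to 100. The whole bars reach from 41.9% in NDEA replicate 1 to 54.6% in Control replicate 3, and most of the difference lies in ranks 2 to 50.

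The tiers of the list differed in size, and their ranges are given in percentage points, which tend to be wider for a larger tier. Ranks 2 to 10 held 12.9 to 17.3% of the sum over the 12 libraries, ranks 11 to 50 held 16.0 to 22.6%, and ranks 51 to 100 held 7.65 to 9.59%. In the tier of ranks 11 to 50, NDEA replicate 1 was lowest at 16.0%, while the 11 other libraries lay between 19.1% and 22.6%. In the tier of ranks 51 to 100 that library was not the lowest, and the highest share was found in NDEA+CFT-1 replicate 2.

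The number of rows needed for 50% of the summed FPKM shows the same spread from another side. It was 107, 94 and 64 in Control, 144, 87 and 94 in NDEA, 117, 91 and 104 in NDEA+CFT-1, and 122, 112 and 110 in NDEA+FYT. Control replicate 3 thus had its RNA in the fewest rows and NDEA replicate 1 in the most, with the other 10 libraries in between and NDEA overlapping with each other group. Control (64 to 107) and NDEA+FYT (110 to 122) did not overlap.

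Most of the list was shared with the 100 highest rows of each library, and least with those of NDEA replicate 1. Of the 100 rows, 52 were among the 100 highest of all 12 libraries, and 20 among those of 11. Another 8 were among those of 6 libraries or fewer, and the fewest was 3. A single library shared 83 to 96 rows with the list, except NDEA replicate 1, which shared 74. Outside the list, 66 rows entered the top 100 of at least 1 library, and 33 of them did so in 1 library only. For 18 of these, the library was NDEA replicate 1. At the edge of the list, ranks 99 and 100 had mean levels of 855 and 849 FPKM, and the next 2 rows, just outside, had 837.8 FPKM each.

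Albumin had a mean of 40078 FPKM, followed by rank 2 with 15909 FPKM. The albumin level was 41878, 42895 and 47376 FPKM in the Control libraries, 34777, 49742 and 46646 FPKM in NDEA, 30174, 37175 and 40387 FPKM in NDEA+CFT-1, and 38797, 34707 and 36381 FPKM in NDEA+FYT. The group means ran from Control (44049 ± 2925 FPKM) over NDEA (43722 ± 7899 FPKM) and NDEA+FYT (36628 ± 2056 FPKM) to NDEA+CFT-1 (35912 ± 5222 FPKM; SD, n = 3), and neighbours in this order overlapped. The NDEA libraries overlapped with those of every other group, whereas each Control library lay above all 6 libraries of the tea groups.

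None of the fitted differences in albumin passed the adjusted threshold, and those of the tea groups from NDEA were about as large as their SE. On the log2(FPKM + 1) scale, with limma and Benjamini-Hochberg adjustment over 11854 genes, albumin differed from NDEA by 0.03 (SE 0.25, adjusted p = 0.970) in Control, by -0.28 (SE 0.25, adjusted p = 0.631) in NDEA+CFT-1 and by -0.24 (SE 0.25, adjusted p = 0.9996) in NDEA+FYT. Without NDEA replicate 1, the library with the lowest albumin of its group, these differences were -0.13, -0.43 and -0.40, with adjusted p of 0.997, 0.570 and 0.999. Other libraries moved the tea differences towards 0, to -0.16 in NDEA+CFT-1 without NDEA+CFT-1 replicate 1 and to -0.14 in NDEA+FYT without NDEA replicate 2. Between the teas the difference was -0.04 (SE 0.25, adjusted p = 0.984), NDEA+CFT-1 against NDEA+FYT. As a share of the summed FPKM, albumin took 6.43 ± 0.442% in Control, 6.49 ± 1.41% in NDEA, 5.20 ± 0.783% in NDEA+CFT-1 and 5.49 ± 0.418% in NDEA+FYT (SD, n = 3). The single libraries ran from 4.46% in NDEA+CFT-1 replicate 1 to 7.63% in NDEA replicate 2.

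Levels below albumin decreased steeply with rank, as 6 rows had a mean above 10000 FPKM and 81 a mean above 1000 FPKM. Of the 12 leading rows, all but albumin changed place between libraries. Rank 2 lay between the 2nd and the 5th place, and rank 11 between the 2nd and the 23rd. Rank 8 was the steadiest of the 12, with an SD of 0.19 on the log2 scale and values from 8063 to 12045 FPKM. Rank 11 varied most, with an SD of 0.49. Its level was 14100 FPKM in NDEA+FYT replicate 3, where it stood in 2nd place, and 3726 FPKM in NDEA replicate 1, and the 10 other libraries lay between 4994 and 8960 FPKM. Rank 7 had 16584 FPKM in NDEA+CFT-1 replicate 2, and the 2 other libraries of that group had 7564 and 6189 FPKM.

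**Figure D2:**
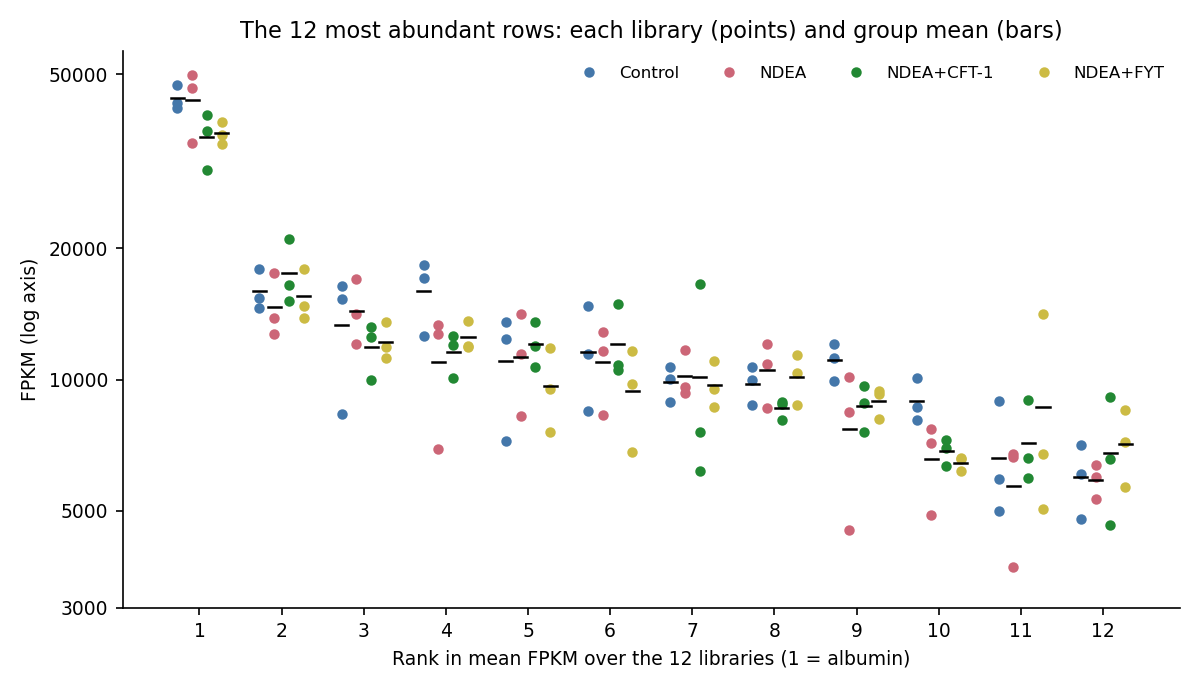
FPKM on a log axis (vertical) of the 12 rows with the largest mean FPKM (horizontal axis, rank 1 is albumin), with a point for each library, coloured by group, and a short bar for each group mean of 3 libraries. Albumin lies above the other rows in all 12 libraries, and the groups overlap in most of the other rows, with rank 10 higher in the 3 Control libraries than in the 9 others.

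Over all 100 rows, the highest of the 12 libraries was a median of 2.19 times the lowest. This ratio was under 1.5 for 7 rows, between 1.5 and 3 for 70, and 3 or more for 23. The median SD over the 12 libraries was 0.332 on the log2(FPKM + 1) scale, against 0.311 over all 11854 genes tested. On this scale the added 1 narrows the spread of genes near 1 FPKM and hardly that of these rows. The 2 medians therefore cannot show how the spread goes with the level. Without NDEA replicate 1 the medians were 0.278 and 0.262. The steadiest rows were ranks 13, 48, 49 and 76, with SDs of 0.12, 0.12, 0.13 and 0.15. Rank 13 lay between 5803 and 7406 FPKM in all 12 libraries. The least steady were ranks 54, 35, 62 and 41, with SDs of 0.96, 0.78, 0.73 and 0.70.

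NDEA replicate 1 was the lowest library for 41 of the 100 rows and the highest for 20. Rank 35 had 443 FPKM there and 2441 and 2405 FPKM in the 2 other NDEA libraries. Rank 42 was high in that library, at 5299 FPKM, and lay between 1239 and 2108 FPKM in the other 11. NDEA+CFT-1 replicate 2 was the highest library for 19 rows. Library weights estimated over all genes tested were lowest for these 2 libraries, 0.138 and 0.234 against 0.358 to 2.62 for the others.

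The comparison of Control with NDEA asks how the abundant rows differ between saline-injected and carcinogen-injected livers. No row was called at an adjusted p under 0.05 with limma (0 of 100, against 0% over all genes tested), and the smallest adjusted p was 0.524. At an unadjusted p under 0.05, 6 of the 100 rows were higher in Control and 2 were lower, against 1.11% and 7.59% of all genes tested, or 8 rows against 8.7% in either direction. The 8 became 19 when NDEA replicate 2 was left out (14 higher, 5 lower), where the share of all genes was 19.3%, and 15 when NDEA replicate 3 was (13 higher, 2 lower), where it was 12.7%. Leaving out NDEA replicate 1 gave 5 higher and 2 lower, and leaving out Control replicate 3 gave 7 higher and 2 lower, while the share of all genes went down to 3.14% and 3.43%. The 3 Control libraries lay above the 3 NDEA libraries for 9 rows and below them for 3, against 1.52% and 10.8% of all genes, or 12 rows against 12.3% in all. The differences were above 0 for 65 of the 100 rows and for 23.8% of all genes, with medians of 0.08 and -0.20 on the log2 scale. The abundant rows thus leaned to the Control side while the table as a whole leaned to the NDEA side, on a scale where each affects the other. Scaling by the median of ratios moved the median of all genes by 0.24 and put 92 of the 100 rows above 0, and quantile normalization left 51 above 0, with a median of 0.01. With NDEA replicate 1 left out, 68 rows and 35.1% of all genes were above 0, with medians of 0.07 and -0.08, and the libraries did not overlap for 13 rows higher and 5 lower, against 4.39% and 13.4%.

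Rank 54 (ENSRNOG00000059330) showed the largest difference. Its level was 2526, 1615 and 1769 FPKM in Control, 295, 404 and 1345 FPKM in NDEA, 2499, 1797 and 1312 FPKM in NDEA+CFT-1, and 1138, 1284 and 1885 FPKM in NDEA+FYT. Both NDEA replicates 1 and 2 were below every other library, whereas NDEA replicate 3 lay above the lowest library of each tea group and below the 3 Control libraries. The fitted difference from NDEA was 1.83 in Control (limma, SE 0.47, adjusted p = 0.524), 1.73 in NDEA+CFT-1 (SE 0.47, adjusted p = 0.326) and 1.37 in NDEA+FYT (SE 0.47, adjusted p = 0.9996). They were 1.39, 1.29 and 0.93 without NDEA replicate 1, and without NDEA replicate 3 they were 2.48, 2.39 and 2.02. The 3 comparisons share the NDEA libraries.

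Rank 17 (ENSRNOG00000006675) was highest in Control. Its level was 7578, 6338 and 7631 FPKM in Control, 2596, 4607 and 3551 FPKM in NDEA, 5255, 5598 and 5604 FPKM in NDEA+CFT-1, and 4277, 3878 and 6222 FPKM in NDEA+FYT. All 3 Control libraries lay above the 9 others, and all 3 NDEA+CFT-1 libraries lay above those of NDEA, while NDEA+FYT overlapped with NDEA. The fitted difference from NDEA was 1.04 in Control (limma, SE 0.25, adjusted p = 0.524), 0.65 in NDEA+CFT-1 (SE 0.25, adjusted p = 0.354) and 0.43 in NDEA+FYT (SE 0.25, adjusted p = 0.9996). They were 0.82, 0.44 and 0.21 without NDEA replicate 1.

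The 2 rows with the lowest values in Control against NDEA were ranks 56 and 87. Rank 56 (ENSRNOG00000029726) had 664, 1090 and 791 FPKM in Control, 2986, 1333 and 2064 FPKM in NDEA, 1299, 1351 and 1577 FPKM in NDEA+CFT-1, and 1212, 1943 and 1421 FPKM in NDEA+FYT. The Control libraries lay below all 9 others, and the tea groups overlapped with NDEA. The difference of Control from NDEA was -1.28 (SE 0.30, adjusted p = 0.524, limma), and -0.997 without NDEA replicate 1.

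Rank 87 (ENSRNOG00000003515) had 371, 587 and 524 FPKM in Control, 1253, 1001 and 1043 FPKM in NDEA, 912, 880 and 1690 FPKM in NDEA+CFT-1, and 868, 1362 and 769 FPKM in NDEA+FYT. Here too the Control libraries were below all 9 others. The difference of Control from NDEA was -1.17 (SE 0.30, adjusted p = 0.524, limma) and ran from -1.31 to -0.98 when each library was left out in turn. NDEA+CFT-1 and NDEA+FYT differed from NDEA by 0.02 and -0.18 (SE 0.30 each), and by 0.12 and -0.08 without NDEA replicate 1.

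In all, the 3 Control libraries lay above the 9 NDEA-injected libraries for 3 of the 100 rows (ranks 10, 17 and 70) and below them for 2 (ranks 56 and 87), against 0.143% and 0.894% of all genes tested. This comparison was chosen after the values were seen. Rank 10 had 8058 to 10100 FPKM in Control and 4890 to 7694 FPKM in the 9 other libraries. Rank 70 had 1394 to 1493 FPKM in Control and 753 to 1263 FPKM in the others. These 5 rows were spread over the list, and none was called at an adjusted p.

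**Figure D3:**
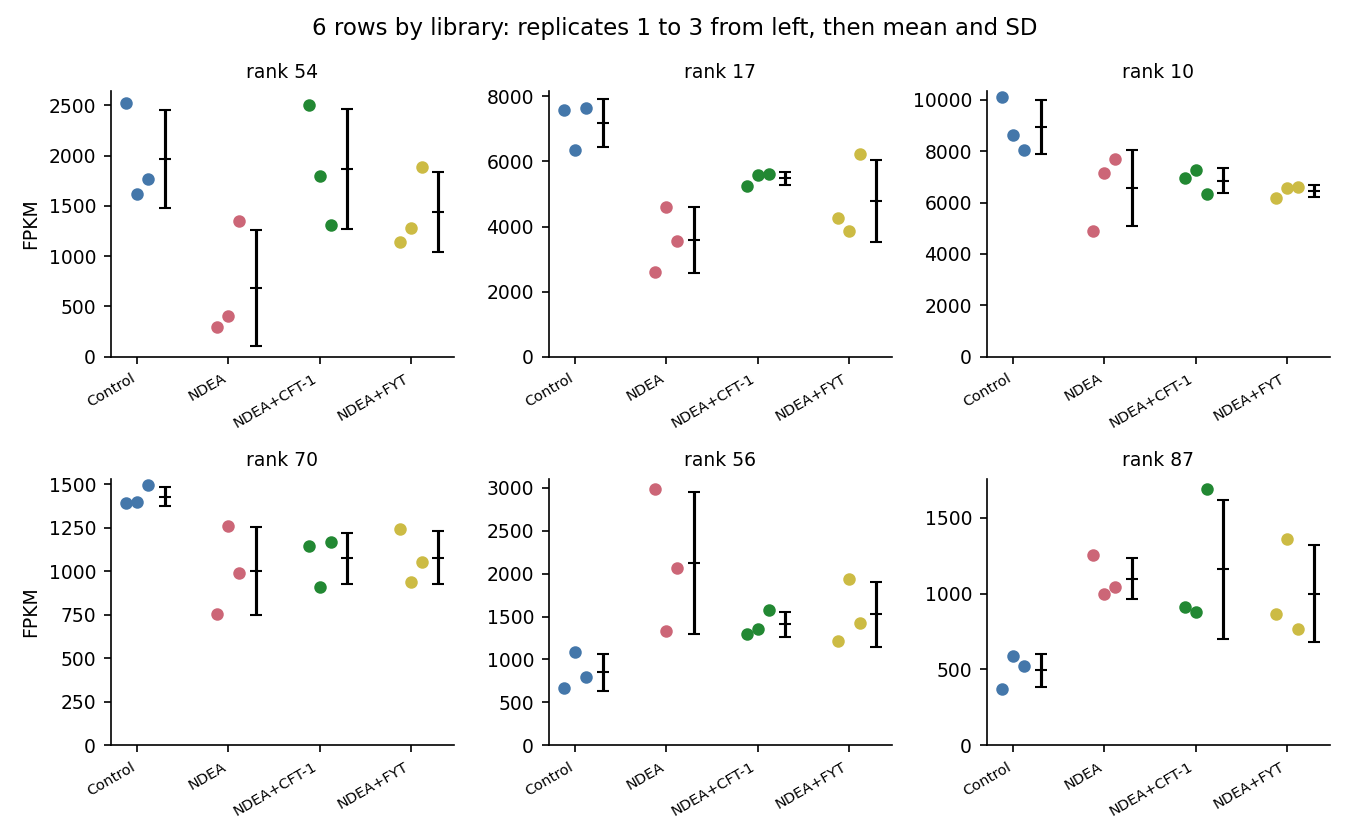
FPKM (vertical axes, starting at 0) of ranks 54, 17, 10, 70, 56 and 87 in the 4 groups, with a point for each of 3 libraries and, to their right, the group mean with its SD. The Control points lie above all others in ranks 17, 10 and 70 and below all others in ranks 56 and 87, and 2 NDEA points of rank 54 lie below all other libraries.

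The other rows at an unadjusted p under 0.05 in Control against NDEA were ranks 77, 60 and 81, next to rank 70. Rank 77 had 1741, 852 and 1705 FPKM in Control and 478, 765 and 813 FPKM in NDEA, a difference of 1.03 (SE 0.29, adjusted p = 0.524, limma). Control replicate 2 was close to the NDEA libraries, and the 2 other Control libraries lay well above them. Rank 42, the next lowest in Control after ranks 56 and 87, had a difference of -0.55 that was -0.003 without NDEA replicate 1, whereas leaving out NDEA replicate 2 gave -0.86.

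The comparison of NDEA+CFT-1 with NDEA asks how the abundant rows differ with the EGCG-rich tea under the same injections. No row was called at an adjusted p under 0.05 (0 of 100, against 0% of all genes, limma), and the smallest adjusted p was 0.326. At an unadjusted p under 0.05, 8 of the 100 rows were higher in NDEA+CFT-1 and 0 were lower, against 1.76% and 10.8% of all genes tested (12.6% in either direction). The 8 became, without NDEA replicate 1, 14 higher and 2 lower, where the share of all genes was 8.94%. Without NDEA replicate 2 there were 12 higher and 2 lower (19.1% of all genes), without NDEA replicate 3 there were 14 higher and 1 lower (14.1%), and without NDEA+CFT-1 replicate 1 there were 5 higher and 0 lower (11.5%). The libraries did not overlap for 8 rows, all higher in NDEA+CFT-1, against 2.7% of all genes higher and 14.1% lower (16.8% in all). The differences were above 0 for 76 of the 100 rows and 30.2% of all genes, with medians of 0.17 and -0.16. The median of ratios moved the median of all genes by 0.22 and put 94 rows above 0, and quantile normalization left 62 above 0. When NDEA replicate 1 was left out, 68 rows and 43.6% of all genes were above 0, with medians of 0.14 and -0.05, and the libraries did not overlap for 22 rows higher and 6 lower, against 10.7% and 16.6%.

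After rank 54, the largest differences were those of ranks 61 and 18. Rank 61 had 2252, 1756 and 1651 FPKM in NDEA+CFT-1 and 373, 1754 and 994 FPKM in NDEA. NDEA replicate 2 lay above the lowest NDEA+CFT-1 library, so the groups overlapped. Its difference of 1.11 (SE 0.43, adjusted p = 0.354, limma) was 0.50 without NDEA replicate 1. Rank 18 had 5345, 10617 and 6355 FPKM in NDEA+CFT-1 and 2160, 5254 and 4496 FPKM in NDEA, a difference of 0.94 (SE 0.35, adjusted p = 0.353, limma) that was 0.55 without NDEA replicate 1. The other rows at an unadjusted p under 0.05 were ranks 17, 33, 39, 66 and 96, with differences of 0.65, 0.75, 0.61, 0.64 and 0.79. When NDEA replicate 1 was left out, these were 0.44, 0.25, 0.29, 0.37 and 0.77. On the lower side, ranks 42, 62 and 56 had differences of -0.76, -0.58 and -0.52, and none reached an unadjusted p of 0.05. Ranks 42 and 56 were at -0.22 and -0.24 without NDEA replicate 1, and rank 56 was at -0.82 without NDEA replicate 2. Rank 62 was at -1.18 without NDEA+CFT-1 replicate 2 and at -0.18 without NDEA+CFT-1 replicate 3.

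The comparison of NDEA+FYT with NDEA asks the same for the common tea. No row was called at an adjusted p under 0.05 (0 of 100, against 0% of all genes, limma), and the smallest adjusted p was 0.9996. At an unadjusted p under 0.05, 3 of the 100 rows were higher in NDEA+FYT and 0 were lower, against 1.07% and 0.413% of all genes tested (1.48% in either direction). There were 0 higher and 1 lower without NDEA replicate 1 (2.29% of all genes), so none of the 3 passed in that direction. Without NDEA replicate 2 there were 9 higher and 1 lower (4.78%), and without NDEA replicate 3 there were 5 higher (2.93%). Without NDEA+FYT replicate 2 or 3 there was 1 higher (1.21% and 1.4%). The libraries did not overlap for 4 rows, all higher in NDEA+FYT, against 3.91% of all genes higher and 2.03% lower (5.95% in all). The differences were above 0 for 56 of the 100 rows and 44% of all genes, with medians of 0.06 and -0.03, and for 58 rows with the median of ratios and 55 with quantile normalization. This lean turned round without NDEA replicate 1, with 49 rows and 71.6% of all genes above 0 and medians of -0.004 and 0.10. The libraries then did not overlap for 12 rows higher and 6 lower, against 19.7% and 3.91%. Besides rank 54, ranks 34 and 29 passed the unadjusted threshold. Rank 34 had 2108, 2858 and 3403 FPKM in NDEA+FYT and 1336, 2171 and 1888 FPKM in NDEA, a difference of 0.63 (SE 0.26, adjusted p = 0.9996, limma). Rank 35 had a larger difference of 0.94, which was 0.12 without NDEA replicate 1. The lowest were ranks 62, 42 and 56, at -0.45, -0.44 and -0.43. Rank 42 turned to 0.11 and rank 56 was at -0.15 without NDEA replicate 1, and without NDEA+FYT replicate 1 rank 62 was at -0.16. Without NDEA replicate 2, ranks 42 and 56 were at -0.75 and -0.73.

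**Figure D4:**
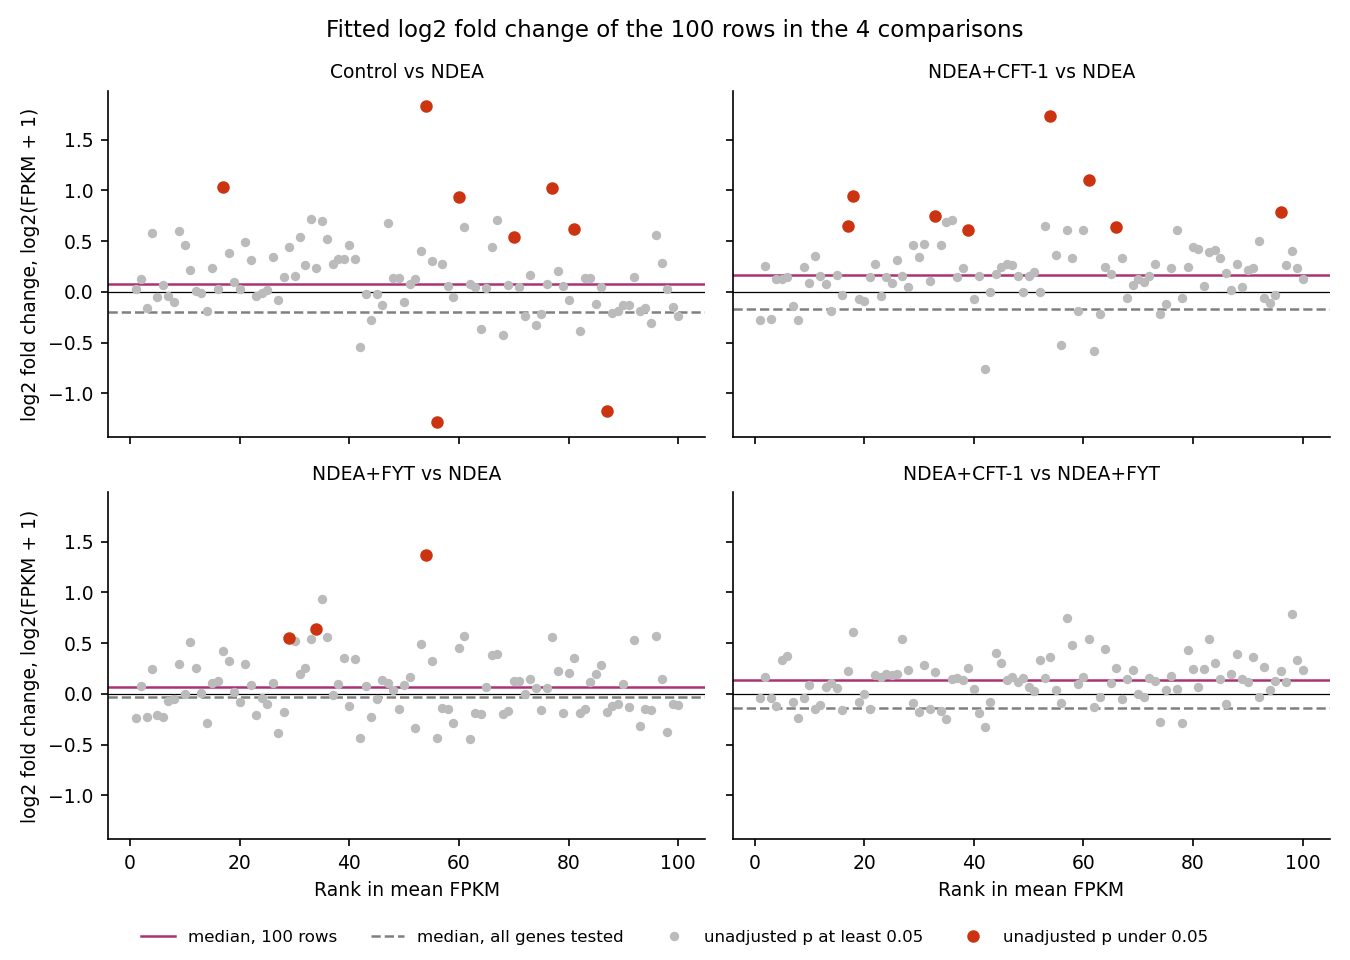
Fitted log2 fold change on the log2(FPKM + 1) scale (vertical axes) of each of the 100 rows against its rank in mean FPKM (horizontal axes), in the 4 comparisons. Red points have an unadjusted p under 0.05 (8, 8, 3 and 0 rows), the solid line is the median of the 100 rows (0.08, 0.17, 0.06 and 0.13), and the dashed line is the median of all genes tested (-0.20, -0.16, -0.03 and -0.14).

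The teas were compared with each other under the same injections. With limma, 0 of the 100 rows passed at an adjusted p under 0.05 (smallest 0.896) and 0 at an unadjusted p under 0.05, against 0% and 5.42% of all genes tested (0.177% higher and 5.24% lower in NDEA+CFT-1). The unadjusted count became 4 without NDEA replicate 1 (8.7% of all genes), 3 without NDEA+FYT replicate 2 (2.94%), and 1 without NDEA replicate 2 (5.54%), NDEA+CFT-1 replicate 2 (2.51%, the row lower) or NDEA+CFT-1 replicate 3 (5.13%). The libraries did not overlap for 17 rows higher in NDEA+CFT-1 and for 2 rows lower, against 2.29% and 18.9% of all genes, or 19 rows against 21.2% in all. The differences were above 0 for 70 of the 100 rows and 25.9% of all genes, with medians of 0.13 and -0.14. The median of ratios moved the median of all genes by 0.18 and put 95 rows above 0, whereas quantile normalization left 47 above 0 and turned the median of the 100 rows to -0.01. Ranks 98, 57 and 18 had the largest differences, 0.78, 0.75 and 0.61. Rank 57 had 1588, 3612 and 1071 FPKM in NDEA+CFT-1 and 829, 1445 and 1074 FPKM in NDEA+FYT. NDEA+CFT-1 replicate 2 was its highest library, and without it the difference was 0.26, while it was 1.14 without NDEA+CFT-1 replicate 3. The difference of rank 18 was 0.32 without the same library, and that of rank 98 was 0.40 without NDEA+FYT replicate 1. Ranks 42, 78 and 74 had the lowest differences, -0.32, -0.29 and -0.28. Rank 42 was at -0.20 without NDEA+CFT-1 replicate 2, and rank 74 at -0.15 without NDEA+CFT-1 replicate 1 and at -0.46 without NDEA+FYT replicate 1.

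Over the 4 groups together, 5 of the 100 rows had an F-test p under 0.05 before adjustment, against 6.22% of all genes tested, and 0 after it (smallest adjusted p 0.791, limma). They were ranks 87, 56, 54, 17 and 77. The 5 became 10 without NDEA replicate 2, where the share of all genes was 10.5%, and 8 without NDEA+CFT-1 replicate 3, where it was 4.64%.

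The pairwise tests above did not set the tea groups against Control. The Control libraries did not overlap with NDEA+CFT-1 for 7 rows higher in Control and 8 lower, against 2.32% and 6.07% of all genes tested. With NDEA+FYT they did not overlap for 10 rows higher in Control and 4 lower, against 1.52% and 18.8% of all genes. Albumin was among the rows higher in Control in both. These counts were added after the values were seen.

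Parts of the list varied together over the libraries, mostly in ways that did not follow the groups. The rows were clustered by the correlation of their log2 levels over the 12 libraries, and 4 sets of at least 8 rows held 52 of the 100 rows. There were 25 clusters in all, 6 rows stood alone, and the median correlation over all pairs of rows was 0.07. The points share their libraries and the depth and composition of each, the sets were formed from these values, and no test was made on them.

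Set A held 17 rows, with rank 9 as its most abundant, and was set apart by a single library. Its share of the summed FPKM was 3.11% in NDEA replicate 1 and lay between 6.74% and 7.87% in the other 11 libraries. The median correlation among its rows was 0.74 with that library and 0.05 without it, and 3 of its rows stayed together when the rows were clustered again without it.

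Set B held 15 rows, with rank 44 as its most abundant, and was high in 2 libraries of different groups. Its share was 3.95% in NDEA replicate 1 and 3.34% in NDEA+CFT-1 replicate 2, and between 1.90% and 2.47% in the other 10 libraries. The Control libraries (1.90 to 2.38%) lay below those of NDEA+CFT-1 (2.47 to 3.34%) without overlap, and every other pair of groups overlapped. Of its rows, 14 stayed together without NDEA replicate 1. Ranks 99 and 100, whose means that library raised, are among the rows of set B.

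Set C held 12 rows, among them ranks 3, 5 and 6, and had the largest mean share of the 4 sets in each group. Its share was 6.64%, 10.0% and 12.2% in Control, 10.9%, 7.99% and 10.1% in NDEA, 9.24%, 9.36% and 10.0% in NDEA+CFT-1, and 6.90%, 10.1% and 8.51% in NDEA+FYT. The lowest and the highest of the 12 libraries were both Control livers, so this set varied as much within a group as over all of them. When clustered without NDEA replicate 1, 11 of its rows stayed together.

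Set D held 8 rows, ranks 4, 10, 17, 37, 40, 49, 70 and 77, and was the one set in which a group lay apart from all 3 others. Its share was 6.72%, 5.23% and 6.42% in Control, 2.90%, 5.01% and 4.78% in NDEA, 4.72%, 4.29% and 4.77% in NDEA+CFT-1, and 4.89%, 4.32% and 4.76% in NDEA+FYT. The 3 Control libraries lay above the 9 NDEA-injected ones, with 5.23% against 5.01% at the nearest. The set includes ranks 10, 17 and 70, which did so one by one, while its other rows did not. Rank 4, its most abundant row, had 12598 FPKM in Control replicate 2 and 13309 FPKM in NDEA replicate 2. The share was not taken without ranks 10, 17 and 70, so the gap cannot be read as one of all 8 rows. The median correlation among its rows was 0.70 with NDEA replicate 1 and 0.53 without it, and 2 of its rows stayed together when clustered without it.

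**Figure D5:**
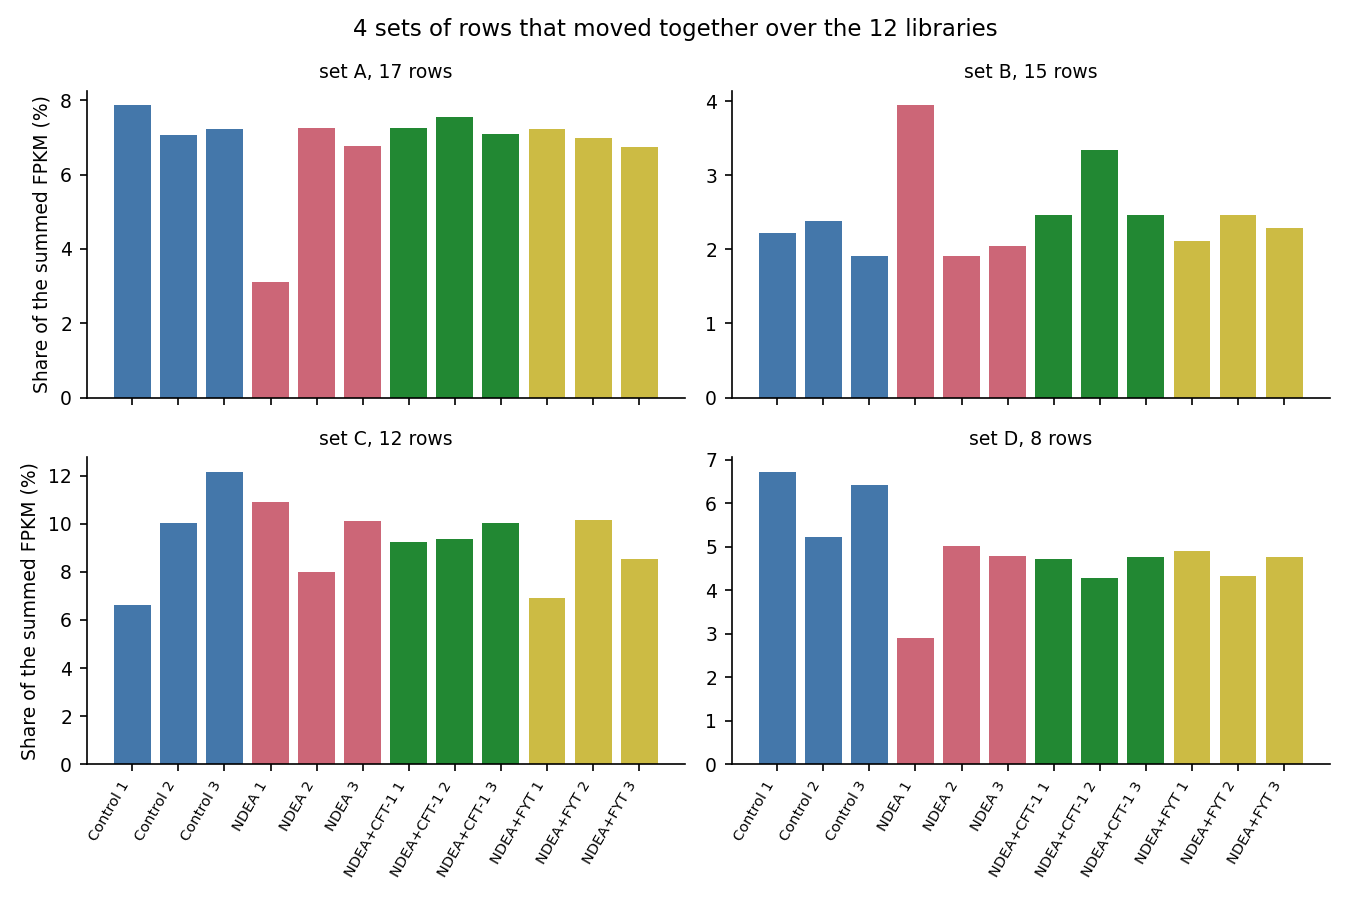
Share of the summed FPKM (%, vertical axes, each from 0) of the 4 sets of rows in each library (horizontal axes), coloured by group. Set A is low in NDEA replicate 1 (3.11%), set B is high in NDEA replicate 1 and NDEA+CFT-1 replicate 2, set C runs from 6.64% to 12.2% within Control, and set D is above 5.23% or at it in Control and at 5.01% or less elsewhere. Of the rows of set D, only ranks 10, 17 and 70 were each higher in Control than in all other libraries.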

How the data were processed

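RNA was sequenced from 12 rat livers as 150 bp paired reads. Per the methods and the submitters' processing notes, the authors trimmed reads with Trimmomatic, mapped them with HISAT2 to Rnor_6.0, removed PCR duplicates, counted uniquely mapped reads per gene with HTSeq 0.6.1 and deposited FPKM values. Genes with near-identical copies may be undercounted. The DEGSeq results of the authors were not used.

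Shares were taken of the FPKM summed over 34188 rows. Differences were fitted with limma 3.58.1 (R 4.3.3) on log2(FPKM + 1) for 11854 genes (mean FPKM of 1 or more), all 4 groups in 1 fit, eBayes with trend, and Benjamini-Hochberg adjustment over all genes. The fit was tested on simulated data. Clustering used average linkage on 1 minus Pearson's r, at a height of 0.4 (pandas 2.3.3, scipy 1.17.1).

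Rows were named by rule: the 12 with the largest mean, the 3 highest and 3 lowest differences in each comparison, the 5 smallest F-test p, the 4 largest and 4 smallest SDs, and the edge of the list. Rank 70 and others at an unadjusted p under 0.05 or in a set were added after seeing values. So were the remarks on ranks 7 and 10, which are among the 12. At most 2 IDs in each direction are printed. The members and lists were chosen with earlier results of these data known. Replicates are separate livers, as far as the labels say. Of 18 pairs of same-numbered libraries, 7 were correlated above 0.1, among them all 3 of Control with NDEA+CFT-1 (0.22 to 0.28). These 2 groups enter the F-test, and were otherwise set against each other only by the overlap of their libraries, which ignores the numbers. In each comparison of 2 groups that was tested, at least 1 of the 3 pairs was not correlated above 0.1.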

Additional observations from a re-analysis of the deposited data

How the results depend on the processing

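The number of adjusted calls among the 100 rows was 0 in all 114 refits. The smallest adjusted p ranged from 0.156 to 0.997 for Control against NDEA, from 0.115 to 0.670 for NDEA+CFT-1, from 0.61 to 1.0 for NDEA+FYT, and from 0.21 to 1.0 between the teas. The share of the rows depends on how many are taken. Over Control, NDEA, CFT-1 tea and FYT tea, the 50 highest rows held 43.1%, 39.8%, 40.3% and 40.1%, and the 200 highest held 60.3%, 57.1%, 58.9% and 57.3%. With albumin taken out of both the list and the sum, and the next row taken in, the shares were 48.0%, 44.3%, 46.6% and 45.2% in the same order. When each library was left out, the group shares ranged over 49.5 to 52.4%, 46.1 to 50.7%, 48.4 to 50.0% and 47.8 to 48.6%.

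The count of rows at an unadjusted p depended on the settings. The share of all genes under the same setting is given in brackets. For NDEA+CFT-1 against NDEA it was 5 with no filter (10.2%), 16 with the median of ratios (15.1%), 17 with library weights (18.2%) and 2 with only the compared groups (7.39%). For NDEA+FYT it was 1 with no filter (2.66%) or the median of ratios (1.58%), and 7 with library weights (7.06%). Between the teas it was 5 with the median of ratios (6.11%), 1 with quantile normalization (4.2%) or equal sums outside the members (8.37%), 3 with library weights (15.3%) and 2 with only the compared groups (11.9%). For the F-test it was 16 with library weights (17.2%). Library weights gave 19 adjusted calls over all genes for NDEA+CFT-1 against NDEA and 1 between the teas. For Control against NDEA there was 1 with no filter, and there were 2 without Control replicate 2. Without NDEA+FYT replicate 3 there was 1 for NDEA+FYT against NDEA and 1 between the teas. None of these calls was among the 100 rows. With each library left out, the unadjusted count ranged over 7 to 19 for Control (3.14 to 19.3%), 5 to 16 for NDEA+CFT-1 (8.41 to 19.1%) and 1 to 10 for NDEA+FYT (1.04 to 4.78%). It ranged over 0 to 4 between the teas (2.51 to 8.7%) and 4 to 10 for the F-test (4.14 to 10.5%). The median difference of the 100 rows was 0.36, 0.44, 0.11 and 0.36 with the median of ratios in the 4 comparisons, 0.010 (Control), 0.070 (NDEA+CFT-1) and -0.014 (between the teas) with quantile normalization, 0.15 (Control) with equal sums outside the members, 0.084 (between the teas) with equal sums over all rows, and 0.11 (NDEA+CFT-1) and 0.04 (NDEA+FYT) with library weights. Left out in turn, libraries gave medians of 0.06 to 0.15, 0.12 to 0.22, -0.004 to 0.06 and 0.09 to 0.16 in the 4 comparisons.

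Some differences turned, those of albumin from values close to 0 and that of rank 42 from further away. Albumin in Control was -0.13 with library weights, -0.03 without Control replicate 3 and -0.13 without NDEA replicate 1, in a range of -0.131 to 0.127. Between the teas it was 0.19 with the median of ratios, 0.083 when replicate 1 of NDEA+CFT-1 was left out and 0.005 when that of NDEA+FYT was, in a range of -0.128 to 0.083. Quantile normalization sets it to 0 throughout, since albumin ranks first in every library. Rank 42 in NDEA+FYT, at -0.44 with all libraries, was 0.11 without NDEA replicate 1, in a range of -0.753 to 0.106. The cause of the other shifts was not tested.

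With the replicate number as a block, the counts at an unadjusted p were 7, 8, 2 and 0 in the 4 comparisons (9.42%, 13.2%, 1.65% and 6.41% of all genes) and 5 in the F-test (6.83%). Correlations of same-numbered libraries ran from -0.47 to 0.28, so the numbers were not taken as a pairing. Leaving out mitochondrially encoded rows was not run, because rows could not be named. With 3 libraries a group and unknown depth, counting error was not estimated.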
